A study of Mus musculus with 6 samples.

Results

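The Gimap genes encode a family of 8 immune-associated GTPases whose genes lie side by side on mouse chromosome 6, on the same chromosome as Ezh2. Members were chosen by gene symbol (Gimap1, Gimap3, Gimap4, Gimap5, Gimap6, Gimap7, Gimap8 and Gimap9), and each of the 11 probe sets that the platform annotation assigned to exactly 1 of these symbols was read on all 6 arrays. Gimap4, Gimap6 and Gimap7 had 2 probe sets and the other 5 genes had 1. The 8 genes are part of 18193 named genes on the array. The list itself uses no threshold, but it was drawn up with the genotype differences of these arrays known, so those differences are described below and no test of them is offered as support.

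The arrays measured total RNA of CD4 T cell cultures grown from naive (CD44 low, CD62L high) spleen cells of C57BL/6 mice, labelled wild type or Ezh2 KO, 1 array for each of 2 genotypes and 3 culture conditions. All cultures received plate-bound antibody to TCR beta (10 µg/ml), antibody to CD28 (1 µg/ml) and IL-2 (15 ng/ml) for 2 days and were then kept for 3 days without the 2 antibodies, 5 days in all. IL-12 (1 ng/ml) with an IL-4 blocking antibody made the Th1 condition. IL-4 (10 ng/ml) with an interferon gamma blocking antibody made the Th2 condition, and the unpolarized condition had both blocking antibodies and neither cytokine. The labels do not give the Ezh2 allele, how it was deleted or the age of the mice. How many mice were used is not given either, so the spread between arrays may be partly technical. The 3 cultures of a genotype may come from the same mice, so genotype cannot be told apart from animal. The SDs and adjusted p-values of genotype differences below describe spread over 3 culture conditions, not over mice. Values are probe set intensities on a linear scale, scaled by the authors to one trimmed mean per array, with array medians from 61.3 to 69.1. Readings under the median of all values (64.43) are called low here. All 11 Gimap probe sets read above it on all 6 arrays, and all 8 genes passed the filter on low values. The number of arrays limits the precision.

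GIMAP proteins bind GTP through a domain related to that of septins, and they are found mainly in lymphocytes. The family is best known for keeping T cells alive: loss of Gimap5 causes a lack of T cells in rats and mice, and loss of Gimap1 removes mature T and B cells. The members are related in sequence, and whether a probe set also picks up another member was not tested. Some members sit in intracellular membranes through a tail at the C terminus (GIMAP1, GIMAP3 and GIMAP5), while others lack such an anchor. Ezh2 is the catalytic subunit of Polycomb repressive complex 2, which methylates lysine 27 of histone H3 at silent genes. For Ezh2 the intensities were 7002, 6553 and 7677 in the unpolarized, Th1 and Th2 cultures of wild type cells and 4971, 4876 and 4946 in those of Ezh2 KO cells, so signal remained in the arrays labelled Ezh2 KO, and which part of the gene the deletion takes is not in the labels.

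The promoters of the members with the largest mean genotype difference (Gimap7 and Gimap5) and with the smallest (Gimap9) are shown as the 250 bases before the RefSeq start (assembly GRCm38.p6), because all 8 genes read higher in Ezh2 KO. Capitals mark matches, on either strand, to a core motif of ETS factors (GGAAG), of RUNX factors (TGTGGT), of KLF factors (CACCC), of GATA factors (AGATAA), of FOXO factors (GTAAACA) or of TCF and LEF factors (CTTTGA).
Gimap7 promoter, chr6:48718371-48718620, plus strand: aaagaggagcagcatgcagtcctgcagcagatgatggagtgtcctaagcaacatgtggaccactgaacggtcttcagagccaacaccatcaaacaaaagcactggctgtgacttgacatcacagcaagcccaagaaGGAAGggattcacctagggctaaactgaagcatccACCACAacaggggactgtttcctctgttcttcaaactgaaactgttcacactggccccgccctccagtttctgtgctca
Gimap5 promoter, chr6:48745947-48746196, plus strand: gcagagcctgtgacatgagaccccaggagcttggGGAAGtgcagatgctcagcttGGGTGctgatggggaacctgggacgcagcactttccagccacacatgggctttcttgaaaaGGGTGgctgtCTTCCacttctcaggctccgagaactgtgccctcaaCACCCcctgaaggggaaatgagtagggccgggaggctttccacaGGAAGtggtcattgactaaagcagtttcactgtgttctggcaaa
Gimap9 promoter, chr6:48675885-48676134, plus strand: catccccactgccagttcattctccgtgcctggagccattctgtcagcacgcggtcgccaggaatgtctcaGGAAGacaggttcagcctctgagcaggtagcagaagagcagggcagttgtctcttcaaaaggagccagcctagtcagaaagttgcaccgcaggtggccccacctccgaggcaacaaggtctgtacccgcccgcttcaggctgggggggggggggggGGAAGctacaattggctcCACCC
No motif contains another, though matches of different motifs may touch or overlap at their ends. All 8 genes matched the promoter table by symbol, and for Gimap8, which has several starts there, the first listed was counted. The ETS motif was in 7 of the 8 promoters, against 64.1% of 32851 mouse promoters of the same length. The promoter without it was that of the first listed Gimap8 start, while the other Gimap8 start had 2 matches. The RUNX motif was in 3 of 8 (14.0% of all), the KLF motif in 5 of 8 (52.0%) and the FOXO motif in 1 of 8 (3.17%, Gimap3), while no match was found to the GATA motif (9.99%) or the TCF and LEF motif (13.8%). These motifs were picked after the values were seen, and a match is no evidence of binding. CpG dinucleotides, which are frequent in the promoters of many classical Polycomb targets, numbered 3 or fewer in 7 of the 8 promoters and 8 in that of Gimap9, against a median of 6 over all promoters, of which 37.8% had 3 or fewer.

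The first comparison asked how the family differed between Ezh2 KO and wild type cells. All 8 genes read higher in Ezh2 KO in each of the 3 cultures, by 1.17-fold (Gimap9) to 2.08-fold (Gimap7) on average. The family had a median log2 difference of 0.75 against -0.07 over 11572 tested genes. For each of the 11 probe sets the 3 Ezh2 KO readings lay above the 3 wild type readings, a pattern seen in 20.1% of tested genes. The fit across all genes (limma, blocked on culture, with a Benjamini-Hochberg adjusted p under 0.05), which serves for the neighbours and gene lists, called 8.35% of all tested genes higher and 7.98% lower. The 8.35% include 6 of the 8 Gimap genes, a count from which nothing is read, since the genes were chosen with this contrast known. With any 1 culture left out, or without the filter on low values, that fit called 0 genes, Gimap genes included. In bulk RNA, a larger share of cells with these transcripts cannot be told apart from more transcript per cell.

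**Figure D1:**
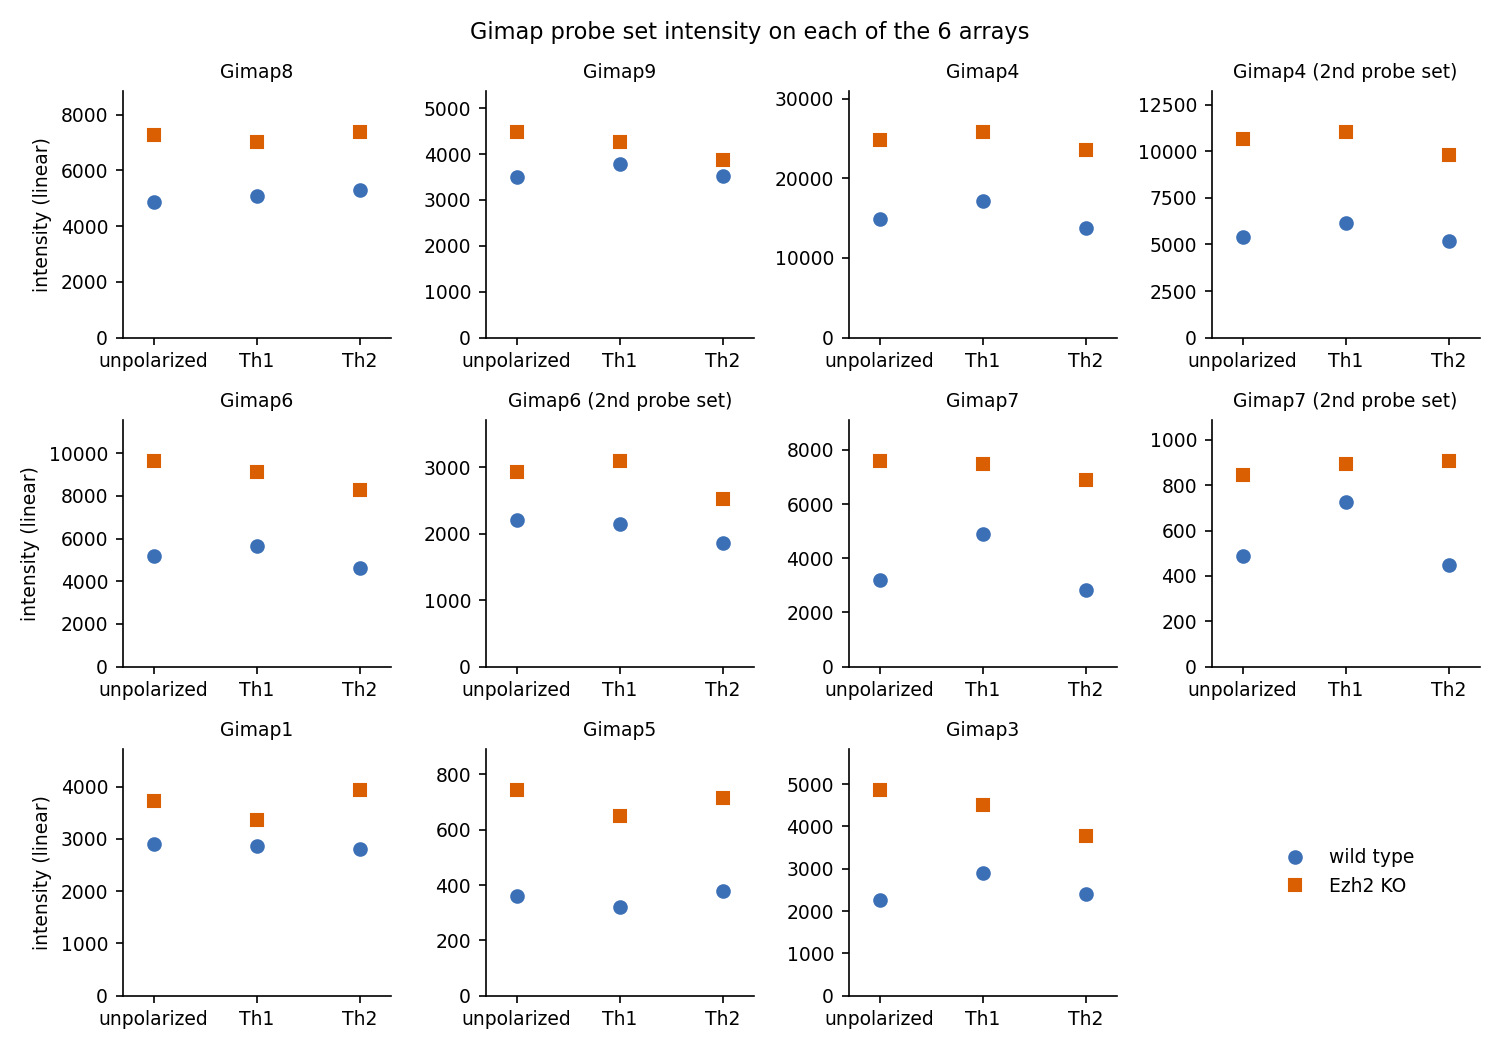
Intensity (linear scale, from 0) of each Gimap probe set in unpolarized, Th1 and Th2 cultures, 1 array per point, wild type as circles and Ezh2 KO as squares. In all 11 panels the Ezh2 KO points lie above the wild type points, with the narrowest gap in Gimap9 and a raised wild type Th1 point in both Gimap7 panels.

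Among the membrane-anchored members, Gimap5, which is required for the survival of naive T cells, read 361, 320.2 and 379 in the unpolarized, Th1 and Th2 cultures of wild type cells and 745, 651 and 716 in those of Ezh2 KO cells. The genotypes were well apart, with the lowest Ezh2 KO reading 1.72 times the highest wild type reading. Its log2 difference was 1.00 ± 0.07 (SD, n = 3 pairs), or 1.99-fold, with nearly the same size in each culture (1.05, 1.02 and 0.92). Its neighbour Gimap3, a close relative of Gimap5 that is also tied to T cell survival, read 2257, 2903 and 2409 in wild type against 4866, 4515 and 3772 in Ezh2 KO. The groups did not overlap, and the difference was larger in unpolarized cells (2.16-fold) than in Th1 (1.56-fold) and Th2 cells (1.57-fold), 0.80 ± 0.27 on the log2 scale in all. Gimap1, which mature lymphocytes need to persist, read 2902, 2868 and 2811 in wild type, the most even wild type readings of the family (highest over lowest 1.03-fold). In Ezh2 KO it read 3726, 3353 and 3939, a log2 difference of 0.36 ± 0.13 or 1.28-fold.

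Among the others, Gimap7, a GTPase known to form dimers that hydrolyse GTP, had the largest mean difference and the widest spread over cultures. It read 3179, 4880 and 2820 in wild type against 7598, 7486 and 6875 in Ezh2 KO, with a log2 difference of 1.05 ± 0.38. The wild type Th1 culture stood above the other wild type cultures, so the fold was 2.39 in unpolarized cells, 1.53 in Th1 and 2.44 in Th2 cells. Its other probe set had the same order in wild type (488, 726 and 448 against 843, 895 and 908 in Ezh2 KO) and gave 0.70 ± 0.37.

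Gimap6, whose product binds a protein of the autophagy machinery, read 5180, 5634 and 4641 in wild type against 9649, 9097 and 8285 in Ezh2 KO, a log2 difference of 0.81 ± 0.11 or 1.75-fold. Its other probe set gave a smaller difference, 0.46 ± 0.06 or 1.37-fold, from 2207, 2150 and 1853 across wild type cultures to 2923, 3097 and 2521 across those of Ezh2 KO. The 2 probe sets thus have one direction and different sizes, and the size for Gimap6 depends on which is read. Gimap4, reported to speed the death of T cells once it has been triggered, read 14945, 17184 and 13745 in wild type against 24753, 25851 and 23599 in Ezh2 KO. This was 1.62-fold (log2 0.70 ± 0.10), from a probe set whose name marks probes that may match more than one transcript. The other Gimap4 probe set went from 5410, 6129 and 5172 to 10668, 11043 and 9774, or 1.89-fold (0.92 ± 0.07).

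Gimap8, the first gene of the cluster, whose protein carries several GTPase domains in a row, read 4882, 5077 and 5311 in wild type against 7268, 6999 and 7386 in Ezh2 KO, a log2 difference of 0.50 ± 0.06 or 1.42-fold. Both genotypes were even across cultures. Gimap9 had the smallest difference, 0.22 ± 0.12 or 1.17-fold, from 3510, 3782 and 3524 across wild type cultures to 4486, 4259 and 3877 across those of Ezh2 KO. Its lowest Ezh2 KO reading was 1.03 times its highest wild type reading, so the genotypes barely separated.

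**Figure D2:**
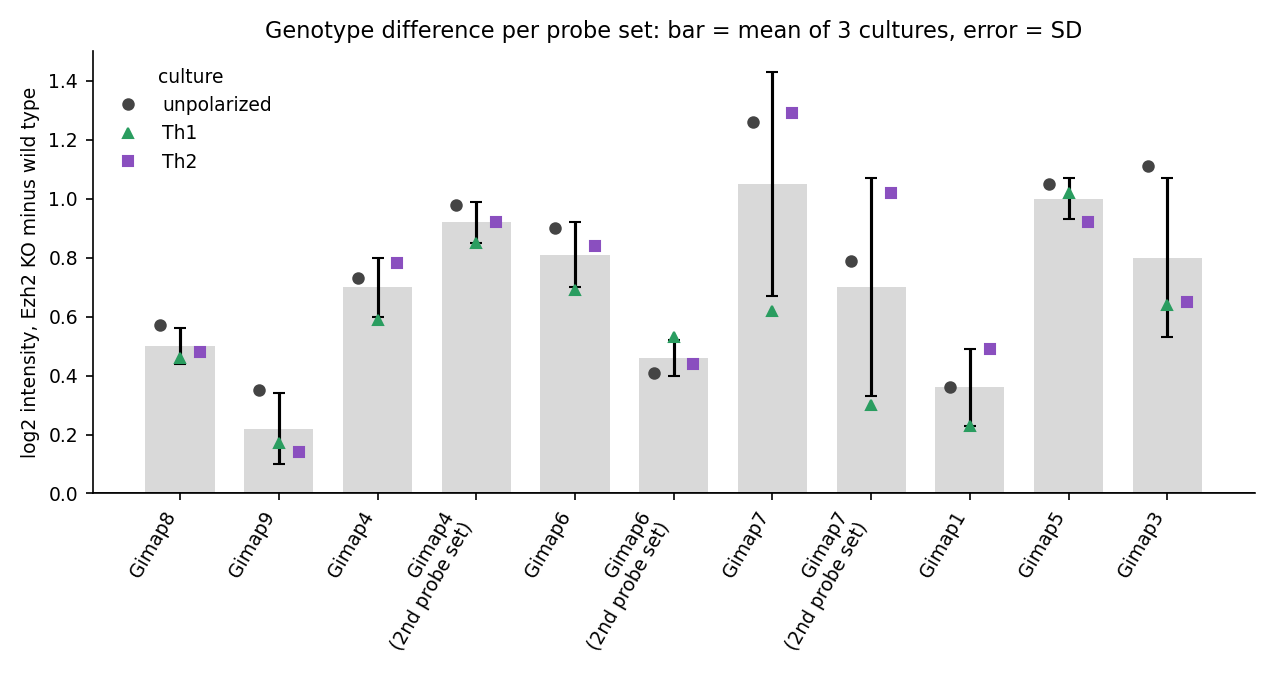
Log2 intensity difference, Ezh2 KO minus wild type, for each Gimap probe set in gene order, with points for the 3 cultures, bars for their mean and error bars for the SD (n = 3 pairs). All points lie above 0, from 0.14 (Gimap9, Th2) to 1.29 (Gimap7, Th2).

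The family's median difference was 0.81 in unpolarized, 0.60 in Th1 and 0.71 in Th2 cultures, where the medians over all tested genes were each -0.06. Single members ran from 1.28-fold to 2.39-fold in unpolarized, from 1.13-fold to 2.03-fold in Th1 and from 1.10-fold to 2.44-fold in Th2 cultures. With 1 array per genotype and culture, whether the genotype difference depends on culture cannot be tested.

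The second comparison asked whether polarization changed the family, with genotype as a block, a contrast that the choice of genes did not use as far as is known. The 2 genotypes then serve as the only replicates. None of the 8 members passed for Th1 against unpolarized (limma adjusted p from 0.857 to 0.999), for Th2 against unpolarized (0.840 to 0.991) or for Th2 against Th1 (0.685 to 0.850), and none had an unadjusted p under 0.05. Over all tested genes 0 passed in each contrast (0% called), while 5.46%, 6.70% and 7.59% had an unadjusted p under 0.05, so these 6 arrays do not resolve culture effects for any gene. A miss here does not show that the members are equal between cultures.

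Th1 minus unpolarized ran from -0.18 (Gimap5) to 0.30 (Gimap7) on the log2 scale, with a standard error of 0.10 for Gimap5 and 0.22 for Gimap7. Th2 minus unpolarized ran from -0.19 (Gimap6) to 0.07 (Gimap8). Th2 minus Th1 ran from -0.46 ± 0.22 (SE, Gimap7) to 0.19 ± 0.10 (SE, Gimap5). Th1 and Th2 were both set against the same unpolarized arrays, so these contrasts share samples.

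The culture differences were also read within each genotype, from the brightest probe set of each gene. In wild type, 6 of 8 members were higher in Th1 than in unpolarized cells (median log2 0.11), led by Gimap7 at 1.54-fold and Gimap3 at 1.29-fold. In Ezh2 KO 1 of 8 was higher and 7 were lower (median -0.08), and Gimap7 was at 0.985 times and Gimap3 at 0.928 times its unpolarized reading. Across its 3 cultures Gimap7 varied 1.73-fold in wild type and 1.11-fold in Ezh2 KO. For Th2 against unpolarized the largest single value was that of Gimap3 in Ezh2 KO, at 0.775 times its unpolarized reading, with 1.07-fold in wild type. For Th1 against unpolarized, the other Gimap6 probe set went the other way in both genotypes (log2 -0.04 in wild type and 0.08 in Ezh2 KO). The other Gimap7 probe set gave 0.57 and 0.09. Each of these is a difference between 2 single arrays and has no test. The share over all tested genes is not given here, so nothing is read from the counts of members. The part of array scaling in such small medians was not tested.

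**Figure D3:**
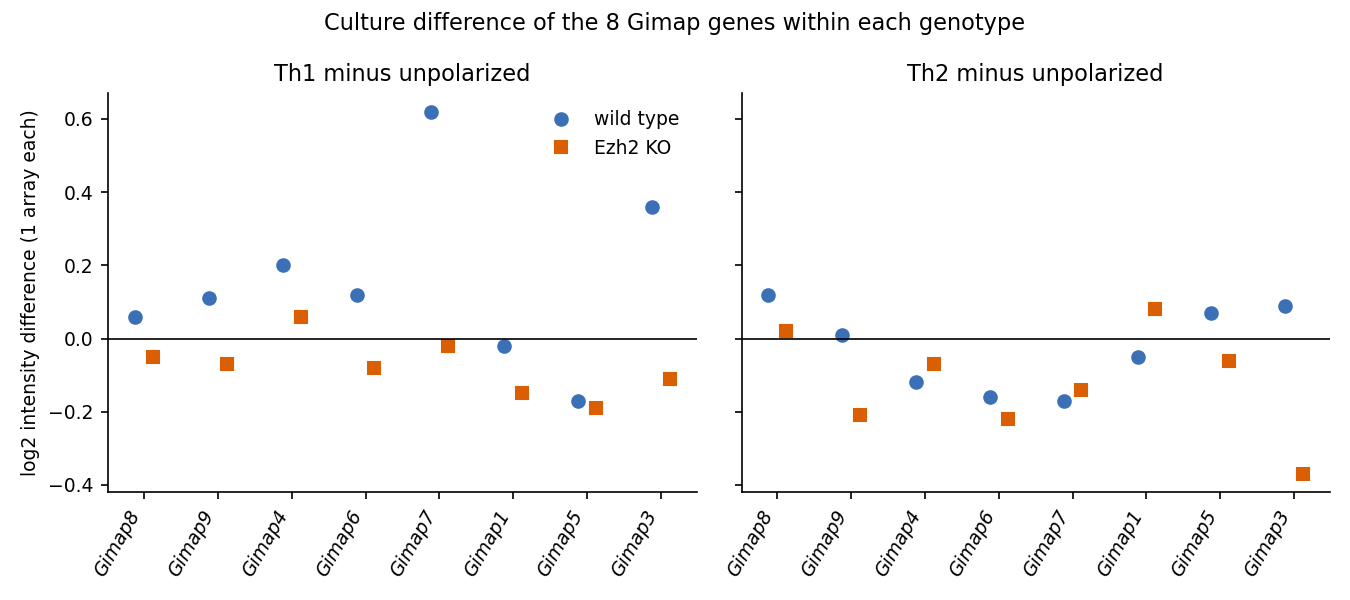
Log2 intensity difference of Th1 (left) and Th2 (right) cultures from unpolarized cultures for the 8 Gimap genes, wild type as circles and Ezh2 KO as squares, each from 1 array against 1 array. Gimap7 (0.62) and Gimap3 (0.36) stand out in wild type Th1 cells, and Gimap3 (-0.37) in Ezh2 KO Th2 cells.

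The cluster was then set among its chromosome neighbours, using RefSeq gene order only. The 8 Gimap genes follow each other with 0 other protein-coding genes between them, in the order Gimap8, Gimap9, Gimap4, Gimap6, Gimap7, Gimap1, Gimap5 and Gimap3, and 23 protein-coding genes lie between Ezh2 and Gimap8. Of these 23, 16 had a named probe set and 13 enough signal to test. None of the 13 passed as higher in Ezh2 KO and 3 passed as lower, where 8.35% and 7.98% of all tested genes did. Their median log2 difference was -0.44. With each array centred on its median, genes of the array called lower went from 924 to 411 and those called higher from 966 to 864. Whether the 3 keep their call there was not examined. All 3 Ezh2 KO readings lay below all 3 wild type readings for 5 of the 13 (27.5% of tested genes) and above them for 1 (20.1%).

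The 3 that passed as lower were Krba1, which went from 199.6, 213 and 271 across wild type cultures to 112, 84.7 and 101 across those of Ezh2 KO (-1.19 ± 0.31, limma adjusted p = 0.0319), Lrrc61 (-0.73 ± 0.16, limma adjusted p = 0.0347) and the zinc finger gene Zfp956 (-0.51 ± 0.06, limma adjusted p = 0.0401). The gene next to Gimap8, the zinc finger gene Zfp775, read 356, 278 and 346 in wild type against 192, 225 and 179 in Ezh2 KO, without overlap and opposite to Gimap8 (-0.72 ± 0.36, limma adjusted p = 0.0707). Repin1, the next measured gene toward Ezh2, gave -0.65 ± 0.39 and Zfp467 -0.50 ± 0.42, neither past the threshold. Sspo, low on most wild type arrays, was the one tested gene of the stretch with all Ezh2 KO readings above wild type (0.97 ± 0.53, limma adjusted p = 0.0746). The others that were tested gave values between -0.44 ± 0.61 (Zfp777) and 0.18 ± 0.13 (Pdia4, an endoplasmic reticulum chaperone), with Zfp212 at -0.19 ± 0.11, Zfp282 at -0.10 ± 0.15, Zfp746 at 0.06 ± 0.28 and Zfp398 at 0.14 ± 0.47. Zfp786, Atp6v0e2 and Rarres2 read low on all arrays.

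On the far side of the cluster the direction was that of the family. Tmem176b, the gene after Gimap3, which encodes a membrane protein of immune cells, read 642, 478 and 714 in wild type against 2752, 2784 and 2565 in Ezh2 KO (2.16 ± 0.35, limma adjusted p = 0.0213). Its paralog Tmem176a read 682, 543 and 559 against 2090, 1676 and 1966 (1.68 ± 0.11, limma adjusted p = 0.0175). Both rose by more than any Gimap gene. Aoc1 and Doxl1, further on, read low on all 6 arrays. On the other side of Ezh2, Cul1, a scaffold of ubiquitin ligases, gave 0.27 ± 0.20 (limma adjusted p = 0.177). Arhgef5 was higher, with 223, 247 and 240.3 in Ezh2 KO (2.62 ± 1.05, limma adjusted p = 0.0444) over wild type readings of at most 78.7, most of them low. Nobox, low on most arrays and partly at the floor in Ezh2 KO (11.33, to which lower readings were raised), gave -1.36 ± 1.25, and Cntnap2 was low on all.

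**Figure D4:**
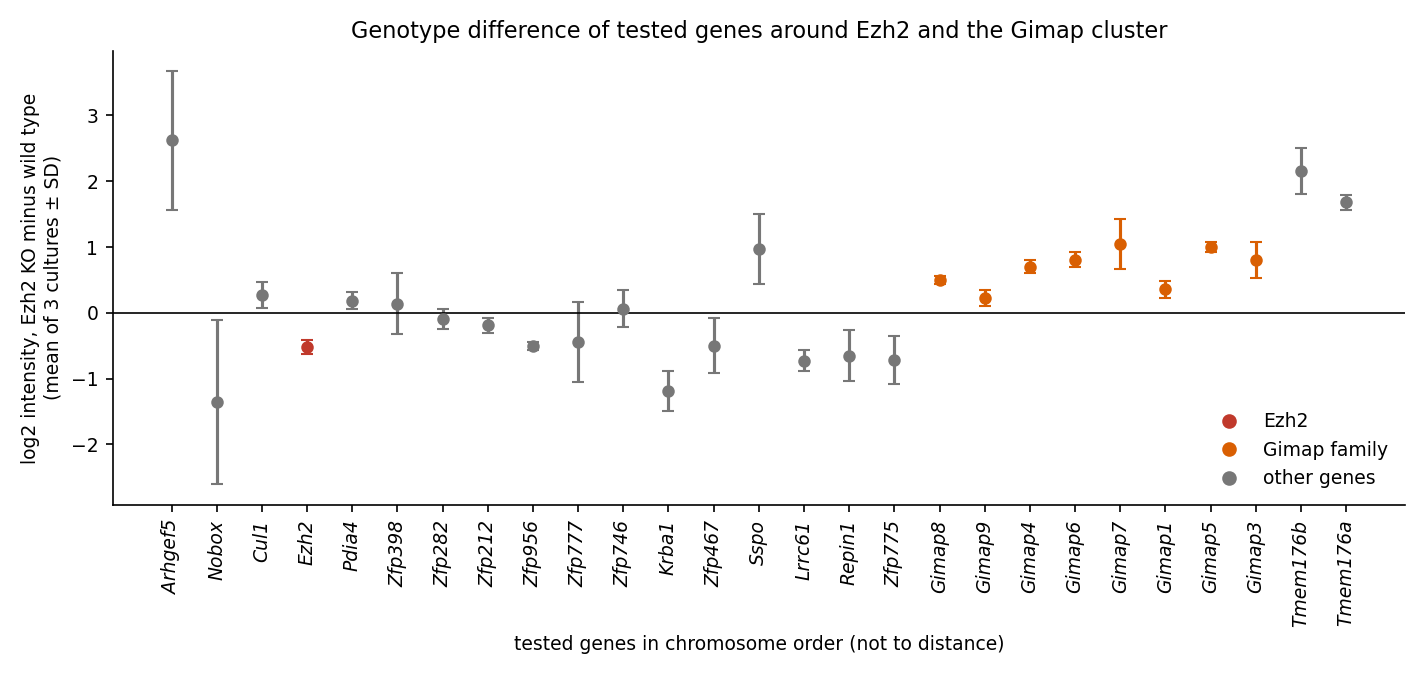
Mean log2 intensity difference, Ezh2 KO minus wild type, ± SD over 3 cultures, for the tested genes in chromosome order from Arhgef5 to Tmem176a (evenly spaced, not to distance). The 13 genes between Ezh2 and Gimap8 have a median of -0.44, while the 8 Gimap genes and both Tmem176 genes lie above 0.

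Beside the family stand genes that share its setting, in lists drawn up with earlier results of these data known. Gimap transcripts are typical of naive and resting lymphocytes, and of 14 tested genes of naive and resting T cells (16 listed) 1 passed as higher and 5 as lower, where 8.35% and 7.98% of all tested genes did, with a median of -0.48. The one that rose was Il7r, the receptor for the survival cytokine IL-7 (0.98 ± 0.18), which read 1264, 1611 and 3070 in wild type against 2776, 2785 and 6255 in Ezh2 KO, so that the genotypes overlapped across cultures while each pair differed the same way. Dapl1 fell by 3.52 ± 0.63, the costimulatory receptor Cd27 by 1.15 ± 0.13 and the lymph node homing receptor Ccr7 by 1.00 ± 0.17. The other genes that fell were Bach2 and Actn1. Foxo1, a factor that drives Il7r in resting T cells, gave 0.56 ± 0.22 and did not pass.

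Some GIMAP proteins have been reported to bind proteins of the Bcl2 family, which control mitochondrial cell death. Of 12 tested Bcl2 family genes (14 listed) 3 passed as higher (8.35% of all tested genes) and 0 as lower (7.98%), with a median of 0.60. These were the death-promoting Pmaip1 (2.21 ± 0.30) and Bcl2l11 (1.32 ± 0.27) and the death-blocking Bcl2l1 (0.66 ± 0.07). Hrk (0.80 ± 0.65) did not pass, and Bcl2 itself gave -0.13 ± 0.12. Of 10 tested genes of the other immune GTPases (13 listed), which are induced by interferon, 6 passed as higher and 0 as lower, against the same 8.35% and 7.98%, with a median of 1.90. Mx1 rose by 3.23 ± 1.23 and Gbp6 by 2.78 ± 1.00, while Mx2 (2.83 ± 1.64, with 2 wild type readings raised to the floor) and Gbp2 (2.31 ± 1.06) did not pass. Each median is to be read against -0.07 over all tested genes and 0.75 for the Gimap genes. All these calls, like those of the neighbours, were lost with any 1 culture left out. Whether they hold with each array centred on its median was not examined.

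**Figure D5:**
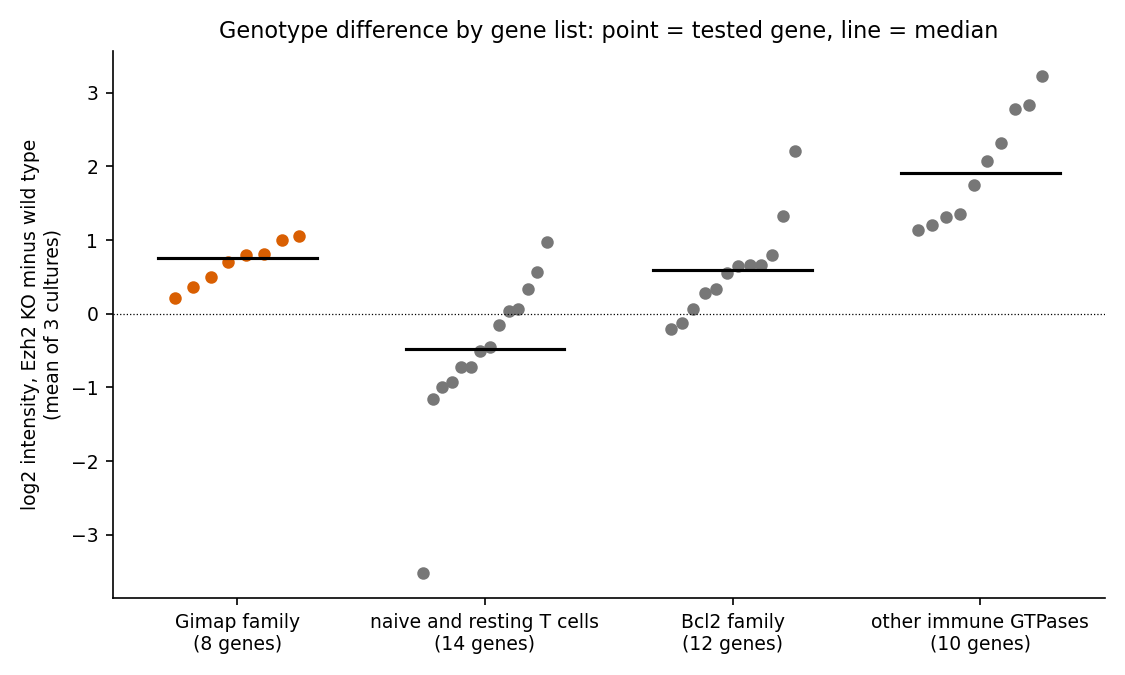
Mean log2 intensity difference, Ezh2 KO minus wild type, over 3 cultures, for the 8 Gimap genes and the tested genes of 3 lists, with a line at each median. The Gimap genes span a narrow range above 0 (0.22 to 1.05), the naive and resting T cell genes lie mostly below 0, and the interferon-induced GTPases lie above all but the highest values of the other lists.

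The CD4 T cell label was checked against its markers. All 6 of the 8 CD4 T cell markers with a named probe set had signal, none differed past the threshold, and Cd4 itself read 496, 477 and 548 in wild type against 433, 300.2 and 315 in Ezh2 KO. Their summed intensity was 44562 to 48779 in wild type and 47665 to 52774 in Ezh2 KO. Most of it came from Cd3d (19785 to 25699 over the arrays) and Cd3g (10244 to 13508), so the sum does not track Cd4. Cd4 (-0.55 ± 0.32) and Cd5 (-0.51 ± 0.16, limma adjusted p = 0.0532) were lower in Ezh2 KO without overlap. Cd3e, Cd3d, Cd3g and Cd28 gave differences above 0. Gimap genes are also expressed in B cells, and 4 of 5 B cell markers had a named probe set, with a summed intensity of 120.0 to 265 in wild type and 319.7 to 940.1 in Ezh2 KO. Of these, Cd79a and Pax5 read low on all arrays, Cd79b gave 0.56 ± 0.22, and Ms4a1 rose by 2.46 ± 1.05, to 210.1, 189 and 669. The summed intensity of the 2 CD8 T cell markers was 389 to 414 in wild type and 374 to 539.8 in Ezh2 KO. Cd8b1 read 300.2, 263 and 277 in wild type against 295, 339 and 450.5 in Ezh2 KO. Cd8a read 89.1, 152 and 131 against 78.6, 90.9 and 89.3, and neither passed the threshold. The summed intensity of 6 myeloid markers was 239.6 to 404 in wild type and 227 to 329.5 in Ezh2 KO. For 3 endothelial markers the sum was 245 to 350.4 and 351 to 391. Each of the 3 NK cell markers with a probe set read low on all arrays, and their sum was 64.5 to 90.3 and 45.2 to 72.4. Of the endothelial markers, Cdh5 read low on all arrays (-0.41 ± 0.65). Pecam1 (0.25 ± 0.27) and Kdr (1.04 ± 0.98) overlapped between genotypes and did not pass the threshold. The part of the B cell and endothelial markers, whose summed readings were higher in Ezh2 KO, in the Gimap values was not tested.

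The genes whose pattern over the 6 arrays was most like the mean of the 8 Gimap genes, by Pearson's r of log2 values, were Cldnd1 (0.999), Hopx (0.999), Prr5l (0.997), Ifrd2 (0.996) and C1galt1c1 (0.996). Hopx, a homeodomain protein of effector T cells, read 1623, 2243 and 1572 in wild type against 6427, 6171 and 5339 in Ezh2 KO. Hopx, Cldnd1, Prr5l, Ifrd2 and C1galt1c1 were each highest in Th1 among the wild type arrays. So was the Gimap mean used to pick them, so this trait follows from the selection. C1galt1c1, a chaperone for an enzyme of O-glycan synthesis, differed by less, 0.47 ± 0.05. The 6 points share 2 genotypes, so these correlations mostly restate the genotype step and are given as a description.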

How the data were processed

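Per the labels' protocols, total RNA of 6 cultures was labelled with a 3' IVT kit for 1 Affymetrix array each. The authors' deposited values are probe set intensities on a linear scale, made with Affymetrix Expression Console per the submitters' processing notes; its version and summarization method are not given in the sources used here. Each array had a trimmed mean (2% per end) of about 500 and medians differed, so the arrays had been scaled but not quantile normalized. A floor was set at the 20th percentile of the file (11.33) before taking log2. The brightest probe set stood for each gene with 1 symbol, and genes whose highest value reached the median (64.43) were tested: 11572 of 18193. Culture and genotype entered an additive model in limma 3.58.1 (R 4.3.3; 2 residual and 1.66 prior degrees of freedom, Benjamini-Hochberg, threshold 0.05). Members with all probe sets, 5 most correlated genes, chromosome neighbours (5 beyond each end) and up to 4 leading genes per list are named; Bach2, Actn1, Foxo1, Bcl2 and the dim markers were added after their values were seen. The members and lists were chosen with earlier results of these data known. Alternatives covered normalization, filter, floor, probe sets, the block and left-out arrays.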

Additional observations from a re-analysis of the deposited data

Results flagged for a closer look

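In each case here a culture difference had one sign in wild type and the other in Ezh2 KO. Of 24 such pairs for the 8 Gimap genes, 10 had opposite signs. Each value comes from 1 array against 1 array, and the difference between genotypes was not tested. The share over all tested genes is not given here, and differences near 0 can take either sign, so nothing is read from this count. No Gimap gene changed the sign of its genotype difference between cultures. For Th1 minus unpolarized, in log2 units, Gimap7 gave 0.62 in wild type and -0.02 in Ezh2 KO, Gimap3 0.36 and -0.11, Gimap6 0.12 and -0.08, Gimap9 0.11 and -0.07, and Gimap8 0.06 and -0.05. All values here are from the brightest probe set of each gene. The other Gimap6 probe set had the reverse signs for Th1 minus unpolarized, -0.04 in wild type and 0.08 in Ezh2 KO. The other Gimap7 probe set gave 0.57 and 0.09, without a change of sign. For Th2 minus unpolarized, Gimap3 gave 0.09 in wild type and -0.37 in Ezh2 KO, Gimap9 0.01 and -0.21, Gimap5 0.07 and -0.06, and Gimap1 -0.05 and 0.08. For Th2 minus Th1, Gimap1 gave -0.03 in wild type and 0.23 in Ezh2 KO. The 3 contrasts share arrays, so 1 array that stands apart can appear in several of them, and most of these values are small.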

How the results depend on the processing

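The genotype difference of each Gimap gene was above 0 in all 96 values from the alternatives. Of these values, 2 moved by more than the SD over cultures: Gimap4 (0.81) and Gimap6 (0.63) with the mean of all probe sets. Changes of filter, floor or block, or testing the brightest probe set on its own, leave a Gimap gene's difference as it was. Those values repeat the main ones, and all alternatives reuse the same 6 arrays. The 96 values are thus not independent support. The count of members past the threshold, given for the fit's stability and not as support, was 6, and 0 without the filter on low values, where no gene of the array passed. Leaving out 1 culture gave 0 to 0 members, with limma adjusted p from 0.0935 to 0.410 and 1 residual degree of freedom fewer. It was 4 with each array centred on its median, where 864 genes of the array passed as higher and 411 as lower against 966 and 924 before, and 7 without the replicate block (culture). It was 5 with the mean of a gene's probe sets, 4 of 11 with every probe set on its own and 7 with the filter at the 60th percentile. Calls over the whole array, in either direction, shifted too. They numbered 1890 genes in the main fit, 2838 without the block and 3228 with the filter at the 60th percentile. With the mean of probe sets 1540 genes passed, and 1978 probe sets did with each on its own. The labels give no replicate numbers. The median over members for Th2 minus unpolarized (-0.10) was -0.02 in wild type alone and -0.11 in Ezh2 KO alone, and that for Th2 minus Th1 (-0.16) was -0.21 with every probe set on its own; the cause was not tested. No culture contrast had a member past the threshold under any alternative with a test. Signal did not limit the Gimap genes, which read above the low limit on all arrays, while the number of arrays did.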

Other observations

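Among the wild type arrays, the Th1 array was the highest for 5 of 8 Gimap genes (Gimap9, Gimap4, Gimap6, Gimap7 and Gimap3), and among the Ezh2 KO arrays for 1 of 8 (Gimap4). Over all tested genes these shares were 33.7% and 29.9%. The counts use the brightest probe set of each gene. The other Gimap6 probe set was highest in the unpolarized array in wild type (2207) and in the Th1 array in Ezh2 KO (3097). For the interferon-induced GTPases the wild type Th1 array was the highest for 10 of 10, with Igtp at 6396, 16254 and 9214 in the unpolarized, Th1 and Th2 cultures of wild type cells. In Ezh2 KO the Th1 array was the highest for 4 of these 10 and the Th2 array for 6 (34.4% of all tested genes), with Igtp at 19478, 26461 and 28090. The naive and resting T cell genes were highest in the unpolarized array for 11 of 14 genes in wild type and 10 of 14 in Ezh2 KO, against 32.6% and 35.7% of all tested genes. These counts were made after the values were seen and carry no test.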
